A study of Mus musculus with 6 samples.

Results

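Small leucine-rich proteoglycans are secreted matrix proteins with a core of leucine-rich repeats, most of which carry glycosaminoglycan or sialylated sugar chains. The 9 genes described here were chosen by name from this family, with earlier results of these data known. They are the rows Dcn, Bgn, Lum, Fmod, Ogn, Prelp, Aspn, Omd and Podn of a table of 55401 genes, in which all 9 were found. They were measured by RNA sequencing of mesenchymal stromal cells, a plastic-adherent culture grown from mouse femoral marrow that can also hold macrophages. The 6 libraries form 2 groups of 3: wild-type (WT) cells and Nlrp3 knockout cells, both of strain C57/B6J. Both groups received lipopolysaccharide (LPS), a bacterial cell wall molecule that signals through TLR4, at 3 µg/mL over 24 h. The product of Nlrp3 nucleates an inflammasome. Unstimulated cultures were not analysed here, so the comparison is between genotypes under LPS and says nothing of the response to LPS. The labels give no age, nor whether the deletion is constitutive, nor whether replicates of a group are different mice or different dishes. Each p-value thus reflects variation among these 6 libraries alone, possibly only technical, and a difference between 2 starting cultures cannot be told apart from one of genotype.

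In connective tissue these proteins bind collagen and set the diameter and spacing of its fibrils. The class I members decorin, biglycan and asporin bind collagen and growth factors of the TGF-β family, and decorin and biglycan carry chondroitin or dermatan sulfate chains. The class II members lumican, fibromodulin, PRELP and osteomodulin carry keratan sulfate or sulfated tyrosines, osteoglycin belongs to class III, and podocan to class V. Released biglycan and decorin are also known as ligands of TLR2 and TLR4 on macrophages, which links the family to inflammation.

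Estimated counts summed to 53.2 to 66.3 M per library (M, 1e6). That is about 13.3 to 16.6 M fragments if a fragment gives 4 counts, which was inferred from the values. Nlrp3 stood at 2.76, 1.68 and 1.86 FPKM (fragments per kilobase of transcript per 1e6 mapped fragments) in WT replicates 1, 2 and 3 and had 0 estimated counts in each knockout library, as the labels name them (exact two-sided permutation p = 0.1, the smallest that 3 against 3 libraries allow). Of 12136 genes tested, 10.4% were higher and 9.2% lower in the knockout libraries at an adjusted p of 0.05 (limma with Benjamini-Hochberg adjustment over all tested genes), and for 36.7% the FPKM values of the groups did not overlap. Of 28 macrophage markers, 24 were tested and all 24 were higher in the knockout libraries. Aif1 (0.850 to 1.60 FPKM) passed the filter of 1 FPKM through the knockout libraries alone, so it had to differ to be tested. It was not called by edgeR (adjusted p = 0.06). Of those below the filter, Mrc1 (0.683 and 0.760 FPKM) and Cx3cr1 (0.113 and 0.107) had overlapping groups, and Cd163 (0.0267 and 0.143) was higher in knockout libraries. The summed level of all 28 was 796 to 904 FPKM in WT and 1842 to 2096 FPKM in knockout libraries, and none was listed at 0. Lyz2 alone had a mean of 463 FPKM in WT and 1145 FPKM in knockout libraries. Of 20 mesenchymal stromal markers, 18 were tested, with 5 higher and 8 lower (3 higher without any 1 of the knockout libraries), and their summed level was 979 to 1135 FPKM in WT and 756 to 800.4 FPKM in knockout libraries. All 8 endothelial, all 8 erythroid and 7 of 8 lymphoid markers were below the expression filter. In bulk RNA, fewer cells of a type and less RNA per cell cannot be told apart, and the part of the macrophage markers in the results below was not tested.

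Within the family, 3 genes rose and 3 fell in knockout libraries. Prelp, Ogn and Fmod rose, Dcn, Podn and Bgn fell, Aspn was not called, and Lum and Omd were too low to test. The 7 tested genes reached an FPKM of 1 in all 6 libraries, so none passed the filter through a single genotype. The 6 calls among 7 tested genes stand beside 19.6% of all tested genes called in either direction. The same 6 genes had groups that did not overlap, as did 36.7% of all tested genes. The median absolute difference of the 7 genes on the log2(FPKM + 1) scale was 1.27, against 0.17 over all tested genes, while their signed median was -0.17, since the changes went both ways. The members were chosen with earlier results of these data known, so these comparisons describe the 7 genes and do not test the family. Of the class I genes 2 fell and 1 was not called, both tested class II genes rose, the class III gene rose and the class V gene fell.

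Windows before RefSeq starts of members that rose and of members that fell are shown. They let a reader compare the DNA before these starts in genes that moved in opposite directions. RefSeq windows (build GRCm38.p6) were matched by symbol for 7 of the 9 genes, all but Dcn and Lum. Each line gives, 5′ to 3′ on the gene's own strand, the bases before the annotated start, cut where an annotated exon of the gene begins. Prelp is read at chr1:133921415-133921651 on the minus strand and Ogn at chr13:49607765-49608014 on the plus strand, and both rose. Bgn is read at chrX:73483351-73483600 on the plus strand and Podn at chr4:108032091-108032204 on the minus strand, and both fell. The Podn stretch lies inside the span given for Podn in these data (positions 108014791 to 108032337). It is therefore not upstream of the gene as measured, and the same holds for the window before its other RefSeq start. The span of Podn was also not matched in the GENCODE M21 annotation. Capitals mark matches, on either strand, to the letters TATAAA in Ogn and to an NF-κB motif, GGG and CC parted by any 5 bases, in Podn.
Prelp: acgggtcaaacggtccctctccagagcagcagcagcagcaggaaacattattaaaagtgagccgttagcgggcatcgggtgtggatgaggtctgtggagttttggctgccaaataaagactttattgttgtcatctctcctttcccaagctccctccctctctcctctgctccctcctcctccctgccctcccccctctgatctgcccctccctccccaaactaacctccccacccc
Ogn: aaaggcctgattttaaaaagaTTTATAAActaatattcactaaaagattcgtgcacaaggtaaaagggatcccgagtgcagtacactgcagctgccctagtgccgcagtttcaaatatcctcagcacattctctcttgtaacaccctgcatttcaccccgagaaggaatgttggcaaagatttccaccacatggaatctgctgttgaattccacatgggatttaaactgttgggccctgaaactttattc
Bgn: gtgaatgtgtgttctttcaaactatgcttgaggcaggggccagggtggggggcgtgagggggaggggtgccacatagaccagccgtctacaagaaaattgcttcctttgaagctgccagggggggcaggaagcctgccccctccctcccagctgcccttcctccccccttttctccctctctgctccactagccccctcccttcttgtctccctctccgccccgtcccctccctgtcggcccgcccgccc
Podn: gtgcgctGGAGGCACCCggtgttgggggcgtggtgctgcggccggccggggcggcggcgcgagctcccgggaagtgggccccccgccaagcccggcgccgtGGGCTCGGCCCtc
Over the 250 bases before the start, the GC content was 42.0% for Ogn and 55.6% for Prelp among genes that rose, and 64.4% for Bgn and 78.0% for this start of Podn among genes that fell, against a median of 52.4% over all windows. Fmod, which rose, had 51.2%, and Aspn and Omd, the neighbours of Ogn, had 30.0% and 38.4%. Of 4 motifs searched on both strands, the AP-1 letters TGANTCA and the SMAD letters CAGACA were found in none of the 7 genes, and 6.75% and 17.1% of 32851 promoter windows of that length hold them. The NF-κB motif, held by 45.8% of windows, was found among the 7 genes only in Podn, at 4 places before this start, of which 3 lie in the stretch printed and 2 of those overlap, and at 2 places before its other RefSeq start. The TATA letters TATAAA, held by 12.4% of windows, were found in Ogn and in Aspn, in Ogn as overlapping matches on both strands between 229 and 222 bases before the start. These matches describe letters in a window and are not sites.

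Decorin showed the largest fall of the 7 tested genes. Dcn (ENSMUSG00000019929, GRCm38 chromosome 10, positions 97479609 to 97518143, plus strand), whose protein binds fibrillar collagen and TGF-β, stood at 18.1, 16.7 and 17.5 FPKM in WT replicates 1, 2 and 3 and at 3.48, 3.48 and 2.82 FPKM in the knockout replicates. Every knockout library was below every WT library by a wide gap. The means of 17.4 ± 0.71 and 3.26 ± 0.38 FPKM (SD, n = 3 each) differ 5.35-fold, and the difference was -2.12 ± 0.09 (SE) on the log2(FPKM + 1) scale (limma adjusted p = 2.4e-05).

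Podocan, a collagen-binding member first described in kidney podocytes, fell as well. Podn (ENSMUSG00000028600, chromosome 4, positions 108014791 to 108032337, minus strand) stood at 7.30, 7.02 and 5.65 FPKM in WT libraries and at 1.72, 1.85 and 1.75 FPKM in knockout libraries. The groups did not overlap, and the knockout libraries lay close together. The difference was -1.46 ± 0.10 (SE; limma adjusted p = 0.000188), a 3.75-fold difference of the means. The ratio of Podn to Dcn FPKM within a library was 0.324 to 0.420 in WT and 0.494 to 0.621 in knockout libraries, higher in every knockout library.

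Biglycan was by far the most abundant member and fell the least of the 3. Bgn (ENSMUSG00000031375, chromosome X, positions 73483602 to 73495933, plus strand), the closest relative of decorin, stood at 1241, 1345 and 1024 FPKM in WT and at 785, 765 and 800.4 FPKM in knockout libraries. Its FPKM ranked between 24 and 27 among all genes in WT libraries and between 41 and 47 in knockout libraries. WT replicate 3 was the lowest of its group and still above every knockout library. The difference was -0.61 ± 0.13 (SE; limma adjusted p = 0.0176), a 1.54-fold difference of the means. The call was lost without WT replicate 1 (adjusted p = 0.0822), without WT replicate 2 (0.0659), without knockout replicate 1 (0.0762) and with no filter on low values (0.0795), and its direction held in all 16 alternatives.

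Asporin, the class I protein known to bind TGF-β and collagen and to promote mineral deposition, showed no call. Aspn (ENSMUSG00000021388, chromosome 13, positions 49544443 to 49567565, plus strand) stood at 4.73, 5.30 and 3.88 FPKM in WT and at 5.56, 5.00 and 2.14 FPKM in knockout libraries. Knockout replicate 3 was the lowest of the 6, knockout replicate 1 the highest, and the groups overlapped. The difference was -0.17 with a 95% interval of -0.85 to 0.51 (limma adjusted p = 0.728), and without knockout replicate 3 it turned to 0.16 (adjusted p = 0.398). The interval is wide, so the data do not show that Aspn was equal between the genotypes.

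**Figure D1:**
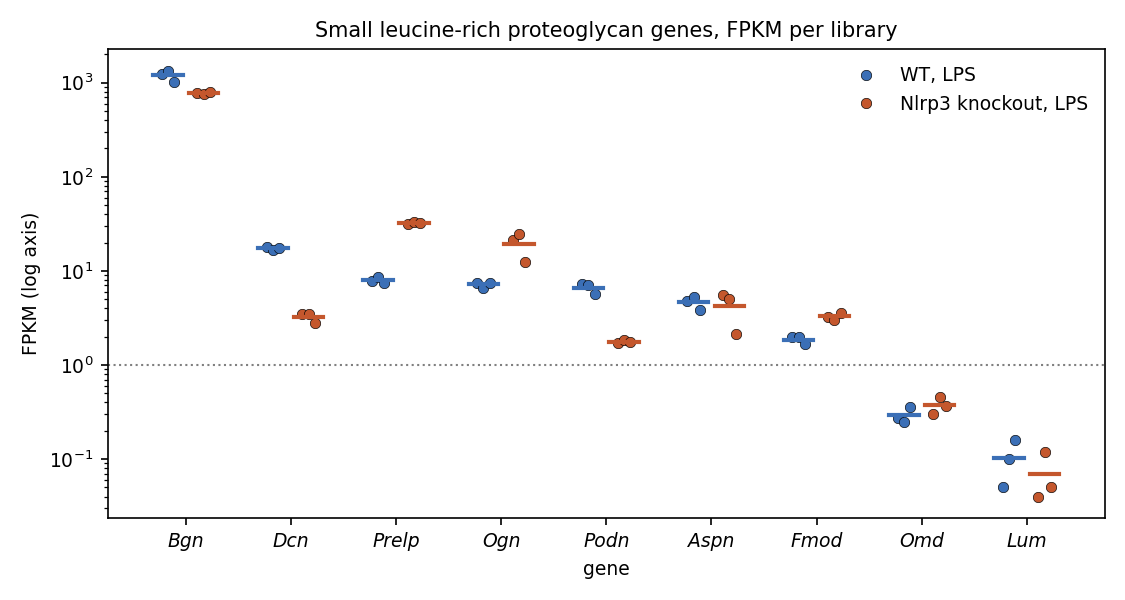
FPKM of the 9 genes in each library on a log axis, genes ordered by WT mean; points are libraries, bars are group means, and the dotted line is the expression filter of 1 FPKM. Dcn and Podn were lower and Prelp and Ogn higher in all 3 knockout libraries, while Omd and Lum stayed below the filter.

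Among class II genes, Prelp rose most. Prelp (ENSMUSG00000041577, chromosome 1, positions 133910304 to 133921414, minus strand) encodes a protein with a basic, arginine- and proline-rich end that binds heparan sulfate, and so can link collagen to basement membranes. It stood at 7.82, 8.51 and 7.39 FPKM in WT and at 31.4, 33.3 and 31.9 FPKM in knockout libraries. The groups were far apart and each was tight. The difference was 1.9 ± 0.07 (SE; limma adjusted p = 1.9e-05), a 4.07-fold difference of the means.

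Fibromodulin, which carries keratan sulfate and sulfated tyrosines and guides collagen cross-linking in tendon, rose less. Fmod (ENSMUSG00000041559, chromosome 1, positions 134037254 to 134048277, plus strand) stood at 1.96, 1.96 and 1.66 FPKM in WT and at 3.26, 3.01 and 3.57 FPKM in knockout libraries. The groups did not overlap. The difference was 0.58 ± 0.09 (SE; limma adjusted p = 0.00497), a 1.76-fold difference of the means, and because Fmod is low this scale understates it: edgeR on the estimated counts gave 0.80 (adjusted p = 0.00762).

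The other class II members were at or near the limit of detection. Lum (ENSMUSG00000036446, chromosome 10, positions 97565128 to 97572703, plus strand), lumican, a keratan sulfate carrier of cornea and other connective tissue, stood at 0.05, 0.10 and 0.16 FPKM in WT and at 0.04, 0.12 and 0.05 FPKM in knockout libraries, from 50 and 35 estimated counts per group in all. Omd (ENSMUSG00000048368, chromosome 13, positions 49582462 to 49592822, plus strand), osteomodulin, a tyrosine-sulfated protein of mineralized tissue, stood at 0.27, 0.25 and 0.36 FPKM in WT and at 0.30, 0.46 and 0.37 FPKM in knockout libraries, from 131 and 171 estimated counts. The groups overlapped for both genes, and no difference was detected. Without the filter, limma gave adjusted p-values of 0.656 for Lum and 0.539 for Omd.

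Osteoglycin, the class III member also called mimecan and first isolated from bone, rose. Ogn (ENSMUSG00000021390, chromosome 13, positions 49608046 to 49624501, plus strand) stood at 7.51, 6.60 and 7.49 FPKM in WT and at 21.4, 24.6 and 12.4 FPKM in knockout libraries. Knockout replicate 3 was lower than the other two knockout libraries, and all 3 were above every WT library. The difference was 1.27 ± 0.23 (SE; limma adjusted p = 0.0107), and 1.55 without knockout replicate 3 (adjusted p = 0.00054). Knockout replicate 3 also had the lowest share of mitochondrial counts, 1.77% against 2.31% to 3.18% in the other libraries. The part of that share in the lower Ogn and Aspn values was not tested.

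**Figure D2:**
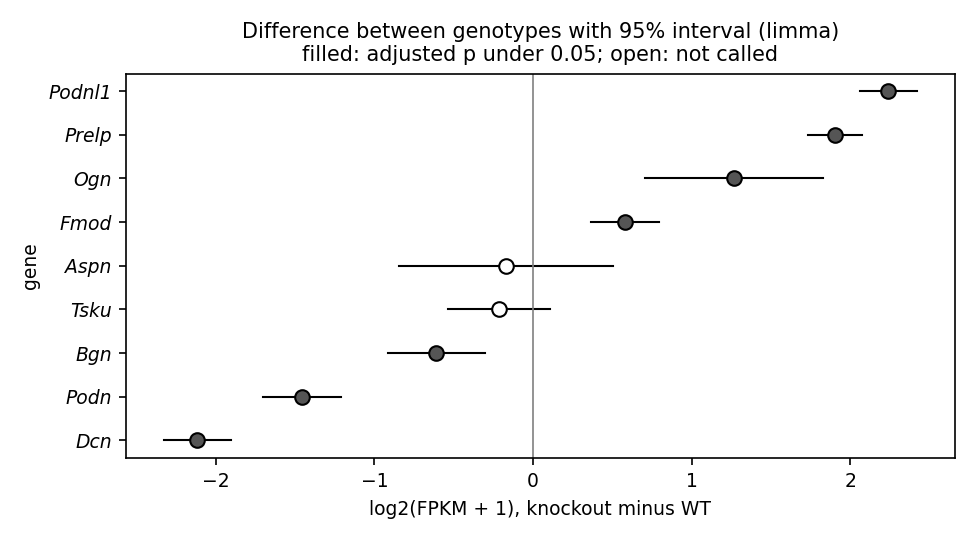
Difference between knockout and WT on the log2(FPKM + 1) scale for the tested members and for the relatives Podnl1 and Tsku, with 95% intervals from limma; filled points passed an adjusted p of 0.05. Podnl1, Prelp, Ogn and Fmod lie above 0, Bgn, Podn and Dcn below, and the intervals of Aspn and Tsku span 0.

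Because Prelp and Ogn rose while Dcn and Podn fell, the order of the members changed. In WT libraries the mean levels ran from Bgn through Dcn, Prelp, Ogn, Podn, Aspn, Fmod and Omd to Lum, and the library ranges of Prelp and Ogn and those of Ogn and Podn overlapped. In knockout libraries they ran from Bgn through Prelp, Ogn, Aspn, Fmod, Dcn, Podn and Omd to Lum, and the ranges of Aspn and Fmod and those of Fmod and Dcn overlapped. Bgn made up 95.9% to 96.7% of the summed FPKM of the 9 genes in WT and 91.4% to 93.6% in knockout libraries. Of the other 8 genes together, Dcn made up 37.8% ± 1.8 in WT and 5.05% ± 0.18 in knockout libraries (SD, n = 3), and Prelp 17.2% ± 1.0 and 50.4% ± 6.7. Ogn made up 15.6% ± 1.4 and 29.5% ± 6.2, and Podn 14.4% ± 1.4 and 2.77% ± 0.35. The summed FPKM of these 8 genes was 46.1 ± 1.9 in WT and 64.7 ± 8.7 in knockout libraries.

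Ratios within a library do not depend on how libraries are scaled to each other. There were 0.432, 0.510 and 0.423 Prelp FPKM per Dcn FPKM in WT libraries and 9.02, 9.57 and 11.3 in knockout libraries. The ratio of Ogn to Dcn was 0.395 to 0.429 in WT and 4.39 to 7.07 in knockout libraries, and that of Bgn to Dcn was 58.6 to 80.5 and 220 to 284. Each of these ratios was higher in every knockout library than in every WT library.

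**Figure D3:**
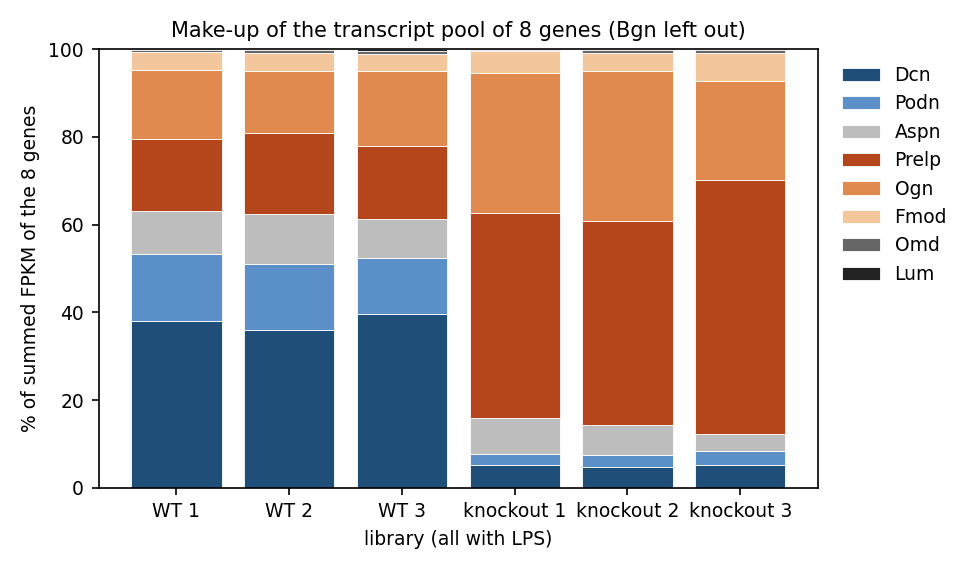
Share of each gene in the summed FPKM of 8 members, Bgn left out, as stacked bars for each library. Dcn and Podn fill 51.1% to 53.2% of the WT bars and 7.42% to 8.31% of the knockout bars, where Prelp and Ogn take most of the height.

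Of the 9 genes, 7 lie in 3 genomic clusters. On chromosome 10, Dcn lies 47.0 kb before Lum, and Kera (keratocan, of cornea) and Epyc (epiphycan, of cartilage) follow, both with 0 estimated counts in every library, as was Ccer1 beyond them. Dcn was the only 1 of these 4 genes above 1 FPKM. On chromosome 1, Prelp and Fmod, 116 kb apart on opposite strands, both rose, while Optc (opticin, of the eye's vitreous), which starts 3.13 kb beyond the end of Prelp on the same strand, stood at 0.99, 0.87 and 1.10 FPKM in WT and 0.90, 0.59 and 0.90 in knockout libraries. The ratio of Prelp to Fmod was 3.99 to 4.45 in WT and 8.95 to 11.1 in knockout libraries. Btg2, the gene beyond Fmod and an antiproliferative factor, rose from 16.4 ± 0.80 to 25.5 ± 1.9 FPKM (0.60, limma adjusted p = 0.00224).

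On chromosome 13, Ecm2 (a related matrix gene), Aspn, Omd and Ogn follow each other on the plus strand with gaps of 11.7, 14.9 and 15.2 kb, all inside the span of Cenpp, a centromere protein gene on the minus strand. Only Ogn of these 4 was called. Ecm2 was below the filter, at 0.397 ± 0.125 FPKM (WT) and 0.370 ± 0.070 FPKM (knockout). Cenpp itself stood at 1.61 ± 0.15 and 1.91 ± 0.11 FPKM (0.16, limma adjusted p = 0.25). In the GENCODE M21 annotation the exons of Ogn and Omd share no base with exons of Cenpp and those of Aspn share 7 bases. Nol8, a nucleolar protein gene just beyond Cenpp, stood at 0.97, 1.26 and 1.08 FPKM in WT and at 1.93, 2.70 and 0.93 in knockout libraries. Like Aspn and Ogn it was lowest of its group in knockout replicate 3. It was not called (0.39, limma adjusted p = 0.309), but passed without that library (0.65, adjusted p = 0.0223). Iars, the next gene beyond Nol8, was not called (37.8 ± 2.6 and 42.4 ± 0.34 FPKM; 0.16, adjusted p = 0.172). Ippk, the kinase gene on the other side of Cenpp, showed no such drop (2.45, 2.76 and 2.52 FPKM in knockout libraries; 0.23, adjusted p = 0.101). Bicd2, a dynein adaptor gene farther out on that side, rose from 13.8 ± 0.59 to 19.7 ± 0.64 FPKM (0.49, adjusted p = 0.00243).

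**Figure D4:**
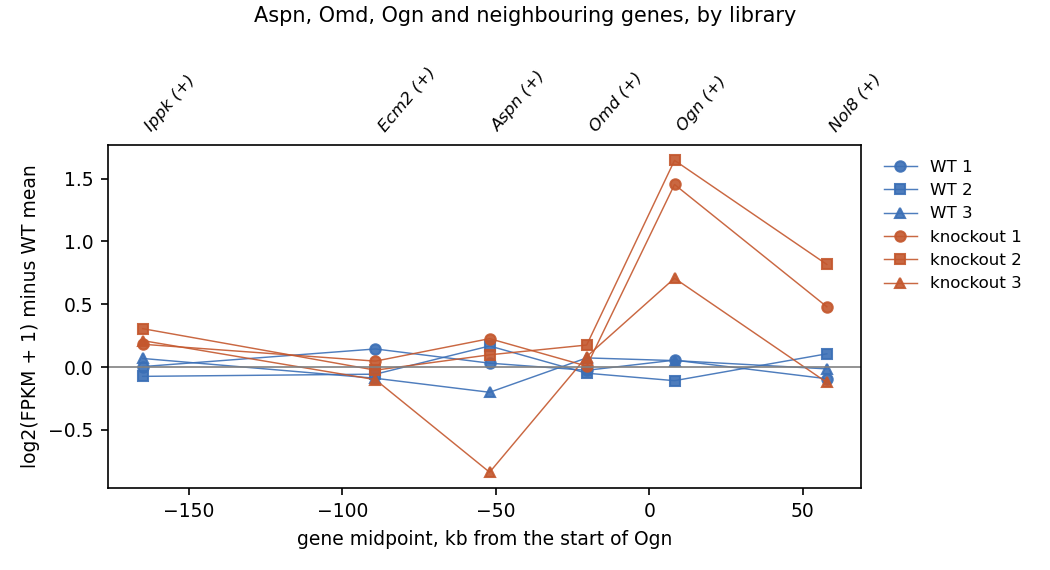
Each library's log2(FPKM + 1) minus the WT mean, for 6 plus-strand genes by the distance of their midpoint from the start of Ogn; lines join the genes of 1 library. Knockout replicate 3 (triangles) reads -0.84 at Aspn, where knockout replicates 1 and 2 read 0.23 and 0.10, and all 3 knockout libraries lie above WT at Ogn.

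Bgn and Podn have no family member beside them. Near Bgn, Haus7 (18.1 ± 1.8 and 16.2 ± 1.8 FPKM; -0.15, limma adjusted p = 0.392) and Zfp275 (9.39 ± 0.23 and 10.6 ± 0.28 FPKM; 0.16, adjusted p = 0.12) were not called, and Atp2b3 was at 0.06 FPKM or less in each library. Near Podn, the sterol carrier gene Scp2 fell from 19.98 ± 2.4 to 13.6 ± 0.52 FPKM (-0.52, adjusted p = 0.0102), and Slc1a7 was at 0.05 FPKM or less.

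The relatives outside the 9 genes added 1 large change. Podnl1 (podocan-like 1, ENSMUSG00000012889), the nearest relative of Podn, stood at 4.52, 4.0 and 4.13 FPKM in WT and at 23.4, 22.4 and 25.1 FPKM in knockout libraries. It rose by 2.24 ± 0.08 (SE; limma adjusted p = 1.3e-05), a 5.60-fold difference of the means, while Podn fell 3.75-fold. Podnl1 thus moved against its relative, with groups that did not overlap in either gene. Tsku (tsukushi, a secreted BMP and WNT modulator) stood at 17.7 ± 2.6 and 15.1 ± 2.1 FPKM (-0.21, 95% interval -0.54 to 0.11, adjusted p = 0.339). Chad (chondroadherin, of cartilage) and Nyx (nyctalopin, of retina) were at 0.12 FPKM or less in every library. Of 8 relatives, 2 were therefore tested and 1 was called.

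Enzymes that build the sugar chains moved in both directions. Of 23 tested genes of chondroitin and dermatan sulfate synthesis, 6 rose and 2 fell, with a median of 0.01 beside 0.01 over all tested genes. Of all tested genes, 10.4% were higher and 9.2% lower, so the count of 2 lower genes was near that share. The same shares apply to each list below. Csgalnact1, which starts the chondroitin chain, fell from 30.7 ± 1.4 to 9.21 ± 0.73 FPKM (-1.63, limma adjusted p = 3.7e-05), and Chst13, a chondroitin 4-O-sulfotransferase, from 2.17 ± 0.04 to 0.0433 ± 0.0379 (-1.60, adjusted p = 4.1e-05). Because Chst13 is low, the log2(FPKM + 1) scale understates its fall: edgeR gave -5.49 for Chst13 (adjusted p = 0.00131) and -1.75 for Csgalnact1. Chst15, which adds the 6-O-sulfate that makes chondroitin sulfate E, rose from 1.70 to 4.97 FPKM (1.15, adjusted p = 0.000392), and Ust, the uronyl 2-O-sulfotransferase, from 2.86 to 5.20 (0.68, adjusted p = 0.00218). Chst13 passed the filter through the WT libraries alone, so without any 1 of these the lower count is 1, and edgeR on counts divided by 4 gave 4. Of 7 tested genes of keratan sulfate synthesis and tyrosine sulfation, 2 rose and 2 fell. The sulfotransferase Chst1 rose from 3.71 to 6.83 FPKM (0.74, adjusted p = 0.00699). The tyrosine sulfotransferase Tpst1 fell from 22.4 to 14.4 FPKM (-0.60, adjusted p = 0.00208), while Tpst2 rose from 15.1 to 21.0 (0.45, adjusted p = 0.00773). B4galt1 fell from 43.5 to 33.6 FPKM (-0.36, adjusted p = 0.0181) and lost its call without WT replicate 1 or 2 or knockout replicate 1 or 2 (adjusted p = 0.0551 to 0.0815) and with a replicate block (0.0539).

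Of 12 tested collagens that these proteins bind, 5 fell and 2 rose, with a median of -0.17. Col3a1 fell from 314 ± 20 to 180 ± 8.2 FPKM (-0.80, limma adjusted p = 0.000929), and the collagen VI chains Col6a1 (165 to 117, -0.50, adjusted p = 0.00229) and Col6a2 (45.0 to 30.6, -0.54, adjusted p = 0.00214) fell with it. The other 2 that fell were the chains of collagen I. Col2a1, of cartilage, rose from 0.280 ± 0.087 to 14.04 ± 0.55 FPKM (3.56, adjusted p = 3.2e-06), passing the filter through the knockout libraries alone. The count of lower collagens was 3 without any of WT replicates 1, 2 and 3 or knockout replicates 1 and 2, and that of higher ones 1 without any 1 knockout library. Of 18 tested genes of collagen maturation, 8 fell and 4 rose, with a median of -0.30. The lysyl oxidases Loxl3 (94.2 to 32.8 FPKM, -1.49, adjusted p = 2.4e-05), Loxl1 (140 to 80.7, -0.79, adjusted p = 0.000997) and Loxl4 (7.58 to 4.68, -0.60, adjusted p = 0.00208) fell. Of the other lysyl oxidases, Loxl2 rose (76.4 to 132, 0.79, adjusted p = 0.000725) and Lox was not called (605 to 615, 0.02, adjusted p = 0.943). Tll1, a protease of the family that trims procollagen and small proteoglycans, also fell (2.13 to 0.563, -1.0, adjusted p = 0.000731). It passed the filter through the WT libraries alone. Pcolce2, an enhancer of procollagen processing, rose from 0.443 to 3.94 FPKM (1.77, adjusted p = 4.1e-05) and passed the filter through the knockout libraries alone.

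Proteases known to cut matrix proteoglycans moved both ways. Of 12 tested, 5 rose and 3 fell, with a median of 0.20. Mmp9 fell from 139 ± 6.8 to 9.15 ± 0.49 FPKM (-3.78, limma adjusted p = 1e-06). Mmp13 rose from 10.1 to 34.0 FPKM (1.66, adjusted p = 3.6e-05), Mmp3 from 23.5 to 53.0 (1.14, adjusted p = 5.2e-05) and Mmp8 from 0.910 to 3.36 (1.19, adjusted p = 0.000762). Mmp12 was not called (2.09 to 2.62 FPKM, 0.22, limma adjusted p = 0.271). Macrophages and granulocytes express several of these genes, and tested macrophage markers were higher in the same libraries, as given above. The part of such cells in these changes, in either direction, was not tested.

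Of 26 tested signalling partners, 8 rose and 2 fell, with a median of 0.13. The count of 2 lower genes was near the share over all tested genes, 9.2%. Tgfb2, a ligand that decorin and biglycan bind, rose from 1.88 ± 0.16 to 6.84 ± 0.52 FPKM (1.45, limma adjusted p = 8.9e-05). Bmp4 stood at 0, 0.05 and 0 FPKM in WT and at 8.80, 1.71 and 6.21 FPKM in knockout libraries (2.50, adjusted p = 0.0089), with a wide spread in the knockout group, through which alone it passed the filter. The macrophage cytokines Il1b (107 to 239 FPKM, 1.14, adjusted p = 0.000593) and Tnf (4.83 to 11.3, 1.07, adjusted p = 0.0018) rose in the same libraries. The lower count was 1 without any 1 WT library and 4 without knockout replicate 2. Of 18 tested core proteins of other proteoglycans, 8 rose and 3 fell, with a median of 0.11. Tgfbr3, the membrane proteoglycan betaglycan, fell from 27.6 ± 2.0 to 13.9 ± 1.3 FPKM (-0.95, adjusted p = 0.000598). Srgn (serglycin, of blood cells) rose from 5.05 to 10.6 FPKM (0.93, adjusted p = 0.000326), Esm1, tested through the knockout libraries alone, from 0.293 to 1.60 (1.0, adjusted p = 0.000466) and Spock2 from 0.920 to 2.83 (1.00, adjusted p = 0.000316).

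**Figure D5:**
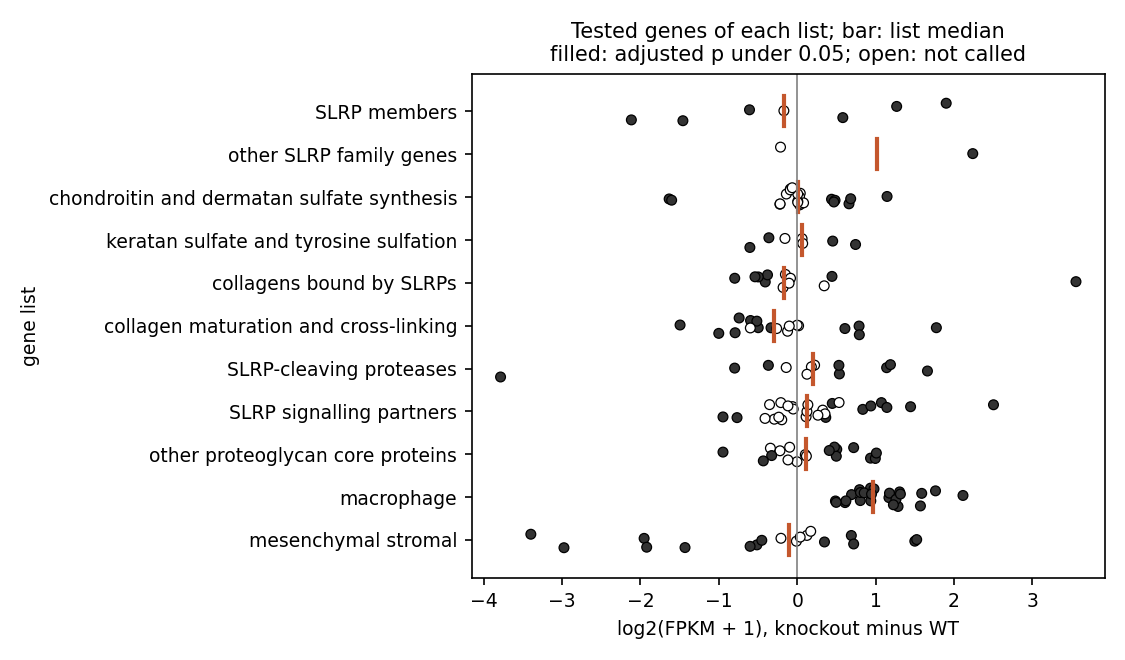
Difference between knockout and WT on the log2(FPKM + 1) scale for each tested gene of 11 gene lists; filled points passed an adjusted p of 0.05, and orange bars are list medians. The 7 small leucine-rich proteoglycans spread from -2.12 (Dcn) to 1.9 (Prelp), while all 24 tested macrophage markers lie above 0. Among these markers, Aif1 was tested through the knockout libraries alone.

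Small leucine-rich proteoglycans also serve as markers of connective tissue lineages, and other markers of these lineages were split. The 6 tested tendon genes include Fmod, itself a member described above and so not a separate marker. Besides Fmod, the transcription factor Scx rose (2.01 to 7.89 FPKM, 1.56, limma adjusted p = 0.000389). The 2 tendon genes that fell were Tnmd (28.6 to 0.200, -4.63, adjusted p = 1e-06) and Tnc (253 to 136, -0.89, adjusted p = 0.000762). Without any 1 WT library Tnmd left the test and 1 tendon gene was lower. Of 6 tested osteoblast genes 4 rose (2 without any 1 knockout library) and 2 fell. Alpl, alkaline phosphatase, rose from 0.133 to 1.42 FPKM (1.10, adjusted p = 0.000216; tested through the knockout libraries alone), while Spp1, osteopontin, fell from 1784 ± 109 to 775 ± 124 (-1.21, adjusted p = 0.0018). Sp7, Bglap, Ibsp and Dmp1 were below the filter. Of 12 chondrocyte genes 2 were tested: Col2a1 rose, and Sox9 fell from 2.74 to 1.02 FPKM (-0.88, adjusted p = 0.00135), while Acan was at 0 in every library. All 6 tested contractile genes rose, among them Acta2, from 1156 ± 70 to 2338 ± 218 FPKM (1.0, adjusted p = 0.00182), Actg2 and Lmod1. Of the 3 below the filter, Myh11 stood at 0.537 and 0.123 FPKM with groups that did not overlap (edgeR -2.11, adjusted p = 0.0122), and Des at 0.773 and 0.320 FPKM (edgeR -1.27, adjusted p = 0.132). Of stromal surface markers, Thy1 (134 to 11.8 FPKM, -3.40, adjusted p = 4e-06), Pdgfra (30.2 to 2.96, -2.98, adjusted p = 4e-06) and Ly6a (188 to 46.1, -1.95, adjusted p = 0.00212) fell. The 5 stromal markers that rose were Nes (11.1 to 33.7 FPKM, 1.52), Nt5e (0.183 to 2.35, 1.5, tested through the knockout libraries alone), Sdc4 (59.2 to 98.2, 0.72), Twist1 (11.6 to 19.3, 0.69) and Cxcl12 (46.9 to 59.7, 0.35, adjusted p = 0.0482).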

How the data were processed

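The series holds polyadenylated RNA libraries of 3 WT and 3 Nlrp3 knockout cultures of marrow stromal cells, all with LPS. The second cDNA strand was marked with U, per the labels' protocols. The submitters' processing notes name StringTie 1.3.4d, HISAT2 2.0.4, cutadapt 1.9 and build GRCm38. For the counting step, annotation release and strand setting no source used here has an entry. The authors deposited FPKM to 2 decimals and whole-number estimated counts, per the file headers. Of the estimated counts from 1 to 16, 44.4% were multiples of 4, and over 5837 genes count and FPKM stayed within 1% of a single factor per library in 100% of comparisons; a fragment thus appears to give 4 counts, an inference from the values. GENCODE M21 holds 55141 of the gene IDs, 94.2% of them with identical coordinates.

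The test was limma 3.58.1 (R 4.3.3; two-sided, with an intensity trend and genotype as sole term) on log2(FPKM + 1). It took genes that reached 1 FPKM in 3 or more libraries, and p-values were Benjamini-Hochberg adjusted over all of them. Intervals are 95% intervals of that model. The log2(FPKM + 1) scale understates differences of genes with low FPKM. For such genes edgeR gave larger values, as 3.41 for Alpl, 3.65 for Nt5e, 2.41 for Esm1 and -1.94 for Tll1. FPKM was the main unit because the counts are estimates proportional to it; edgeR 4.0.16 and DESeq2 1.42.0 on the counts were alternatives, as were other pseudocounts, filters and scalings, a replicate block and leaving out each library. The code was tested on simulated data. Members and the 21 gene lists (302 of 304 entries matched) were chosen with earlier results of these data known. Genes named are all members and relatives, their neighbours, and called genes of each list. The latter are those of largest difference on the log2(FPKM + 1) scale (at most 4, or 3 for cell type lists). Added after their values were seen were the chains of collagen I, the stromal markers that rose, Myh11, Des, Lox, Loxl2, Loxl4 and Mmp12. Aif1 and the macrophage markers below the filter were added in the same way. Of the tested list genes, 13 were under 1 FPKM in every library of 1 genotype, 9 passing through the knockout and 4 through the WT libraries, and had to differ to be tested. The values of 1 gene under this rule are not reported here. Lists are described by counts and medians, with no set test. Precision is limited by depth for Lum and Omd. Protein sequences were not used here.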

Additional observations from a re-analysis of the deposited data

How the results depend on the processing

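The 3 higher members stayed at 3 in all 16 alternatives, and the lower members numbered 3, or 2 where Bgn was lost (values beside Bgn above). Dcn, Podn, Prelp, Ogn and Fmod were called in all 16; the largest adjusted p of Ogn was 0.0483, without knockout replicate 1. Only Aspn, never called, changed sign, to 0.16 without knockout replicate 3 (-0.37 without knockout replicate 1). Over all genes, leaving out 1 library gave 705 to 1464 higher and 583 to 1281 lower calls (lower: 583, 675 and 640 without WT replicate 1, 2 and 3; higher: 705 without knockout replicate 1); the highest of each came without knockout replicate 3, and the cause was not tested; DESeq2 gave 1817 higher and 1680 lower. Equal library medians moved the median of all genes by -0.02.

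The titles number the libraries of each genotype by day, 1 to 3, while another label gives day 1 for all 6. Deviations from the group means of same-numbered libraries correlated at 0.0199, 0.168 and 0.0956 over tested genes. WT replicates 2 and 3 each correlated best with the knockout library of the same number. WT replicate 1 correlated best with knockout replicate 3 (0.0807). Since the match was not complete and the labels differ on the day, the numbers were not taken as pairs. With a replicate block, 3 members were higher and 3 lower, as without it, and 1106 genes were higher and 980 lower in all; the adjusted p was 0.0345 for Bgn, 0.029 for Fmod and 0.0303 for Ogn. Camp, a granulocyte gene (9.05 to 4.60 FPKM), left the called genes without WT replicate 1 or 3 (adjusted p = 0.0546 and 0.0539). Depth limits Lum, with 50 and 35 estimated counts per group, and groups of 3 libraries were not tested for outliers.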

Other observations

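Cell type markers of other lineages that were tested added these values. The granulocyte genes S100a8 (tested through the knockout libraries alone; 0.783 to 4.50 FPKM, 1.60, limma adjusted p = 0.00142) and Csf3r (1.36 to 5.40, 1.44, adjusted p = 0.000125) rose and Camp fell from 9.05 to 4.60 FPKM (-0.87, adjusted p = 0.0144), with Ly6g, Mpo and Elane below the filter; leaving out any 1 knockout library left 1 higher granulocyte gene. The adipocyte regulator Cebpa rose from 1.95 to 4.51 FPKM (0.91, adjusted p = 0.0015), while Adipoq, Plin1 and Lep were at 0 in every library. The T cell receptor gene Trac rose from 0.820 to 3.38 FPKM (1.29, adjusted p = 0.011) with Cd3e and Cd3g at 0 in every library. The macrophage genes with the largest differences were Marco (10.2 to 47.2 FPKM, 2.11, adjusted p = 2.3e-05), Clec4d (12.1 to 43.6, 1.76, adjusted p = 2.4e-05) and Adgre1 (44.0 to 134, 1.59, adjusted p = 2.9e-05). Atp2b4, a calcium pump gene that flanks the chromosome 1 cluster on the side of Optc and Prelp, rose from 2.34 to 7.06 FPKM (1.27, adjusted p = 0.000304).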
